A study of Mus musculus with 4 samples.

Results

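Genes that carry, import, store, export and sense iron were examined in mouse lens epithelium after UVB irradiation, with transferrin as the starting point. The 10 genes were chosen by name for their role in iron handling, as the probe sets annotated to Trf, Tfrc, Slc11a2, Fth1, Ftl1, Slc40a1, Cp, Heph, Hmox1 and Ireb2. They had 14 of the 28944 probe sets on the array, and they are 10 of 19938 genes that had a probe set of their own. Right eyes of 8-week-old male C57BL/6 mice received UVB at 30 mJ/cm2, and the left eyes of the same animals, shielded with foil, were the controls. Lens epithelia were taken 1 day later. There were 2 independent experiments with 1 array per condition in each, and so 2 control and 2 UVB arrays. The methods give 3 mice per experiment without saying whether their RNA was pooled for an array, and the p-values below measure only the spread between these arrays.

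Iron travels outside cells bound to transferrin, which also occurs in the fluids of the eye. The transferrin receptor takes the loaded carrier into endosomes, from which iron reaches the cytosol, where it is used, stored in ferritin or returned through ferroportin. Free ferrous iron turns hydrogen peroxide into hydroxyl radicals, so that storage and export bear on oxidative damage in a tissue exposed to light.

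Trf was the listed gene that rose, by 2.12-fold, and no other listed gene differed by as much as 1.2-fold in the mean of the experiments. The fold change is the ratio of normalized signals, and the threshold was that of the study, over 1.8-fold at an unadjusted p below 0.01 in limma. Of the 10 genes, 1 passed it as higher and 0 as lower, and the same gene passed when the experiment was a block in the fit, which pairs the eyes. Among all probe sets, 0.111% passed as higher without the block and 0.0622% with it. As lower, 0 of all probe sets passed without the block.

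**Figure D1:**
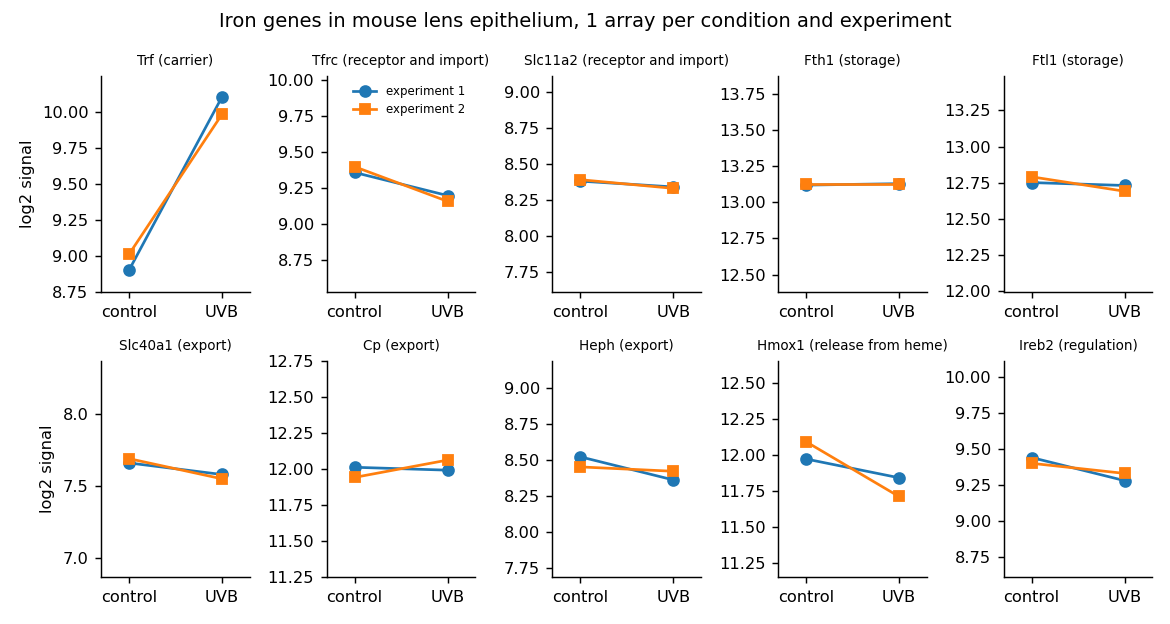
Log2 signal (vertical axes, each spanning the same range) of the 10 iron genes in control and UVB-irradiated lens epithelia, with 1 line per experiment joining its 2 arrays. Trf lies at 8.90 and 9.01 in the controls and at 10.10 and 9.98 after UVB, and the lines of the other 9 genes are flatter. The steepest of these is the fall of Hmox1 in experiment 2, from 12.09 to 11.71.

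Every listed gene has 1 probe set of its own, and Ftl1, the ferritin light chain gene, has 4 more that it shares. The annotation gives these 4 to Ftl1 together with Mir692-2 and Mir692-3, so their signals cannot be assigned to one of the 3. Both microRNA genes give the same mature product, shown here because its seed (bases 2 to 8, in capitals) and length show what the shared annotation refers to. RefSeq places it, on GRCm38.p6, at chr4:125504805-125504825 and chr13:74407121-74407141, both on the plus strand.

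mmu-miR-692: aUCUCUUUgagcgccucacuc

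One property of the deposited values bears on every test below. The sum of the control and UVB signals was the same in both experiments, within 0.01, in 100% of the probe sets, so that each probe set has 1 mean level in the whole table. The spread between same-condition arrays therefore mirrors the difference between the changes of the experiments, and the fit without the block counts 2 residual degrees of freedom where 1 is left. With the block, limma called 0 of 28944 probe sets at an adjusted p of 0.05 (lowest adjusted p 0.357), while 3878 had an unadjusted p under 0.05. For a single gene, an exact permutation test of 2 against 2 cannot give a p below 0.333. Signals lay above the 75th percentile on all arrays for 10 of 10 lens epithelium genes, for 10 of 10 measured lens fiber genes and for 5 of 22 photoreceptor genes. These markers therefore do not single out the epithelium from other lens cells, and some photoreceptor signals were high in the controls too.

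Trf encodes transferrin, the plasma carrier of ferric iron. Its log2 signals were 8.90 and 9.01 in the controls of experiments 1 and 2, and 10.10 and 9.98 after UVB. Both UVB arrays lay above both controls, and the gap between the groups exceeded the gap between arrays of a group. Control epithelia averaged 8.96 ± 0.078 (SD, n = 2), and those given UVB 10.04 ± 0.085 (SD, n = 2). The increase on the log2 scale was 1.20 in experiment 1 and 0.97 in experiment 2. In limma without the block, the standard error of the log2 fold change was 0.069 and the adjusted p was 0.0217. With the block, the standard error was 0.083 and the unadjusted p was 0.00408 (adjusted p = 0.357). The 95% interval of the fold with the block ran from 1.69 to 2.66. Among genes with their own probe set, 11 had a larger log2 fold change.

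The import side did not follow Trf upward. Tfrc encodes the transferrin receptor, whose mRNA is stabilized by iron regulatory proteins when iron is short. Its log2 signals were 9.36 and 9.40 in the controls and 9.20 and 9.16 after UVB, lower in both experiments. Tfrc fell by 0.20 on the log2 scale, or to 0.871-fold (adjusted p = 0.0375 from limma). With the block, the adjusted p was 0.357. The call also ended when arrays were scaled to equal 75th percentiles or quantile normalized.

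Slc11a2 encodes DMT1, which moves ferrous iron out of endosomes into the cytosol. Its log2 signals were 8.38 and 8.39 in control and 8.34 and 8.33 after UVB. The log2 fold change was −0.05 (standard error 0.0099 without the block and 0.028 with it, adjusted p = 0.0682 from limma without the block). Both UVB arrays were lower, by 0.04 in experiment 1 and 0.06 in experiment 2, and the gene was called only after centring each array or after leaving out dim probe sets.

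The ferritin genes, which encode the heavy and light subunits of the iron storage shell, had some of the smallest differences. Fth1, whose heavy chain oxidizes iron on entry, had log2 signals of 13.12 and 13.13 in the controls and of 13.13 on both UVB arrays. Its log2 fold change was 0.005, and −0.015 once arrays were centred on their medians. With the block, the 95% interval of its fold was 0.930 to 1.08.

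Ftl1 had log2 signals of 12.75 and 12.79 in the controls and of 12.73 and 12.69 after UVB on its own probe set. The log2 fold change was −0.06 (adjusted p = 0.203 from limma), −0.02 in experiment 1 and −0.10 in experiment 2. Its 4 shared probe sets showed the same direction, and over all 5 the log2 fold change ran from −0.08 to −0.05, lower in both experiments in each. None of the 5 passed an adjusted p of 0.05 in limma, the lowest being 0.0598. The light chain gene has processed copies in the genome, so all 5 are uncertain as to the copy they measure.

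Export genes had small negative or mixed differences. Slc40a1 encodes ferroportin, the iron exporter, and had log2 signals of 7.66 and 7.69 in the controls and of 7.58 and 7.55 after UVB. Both UVB arrays were lower, with a log2 fold change of −0.11 (adjusted p = 0.0598 from limma without the block). The standard error was 0.019 without the block and 0.034 with it. Once arrays were centred on their medians, limma gave an adjusted p of 0.0289, so its side of 0.05 depended on the scaling.

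The 2 multicopper ferroxidases, which oxidize iron as it leaves the cell, differed in sign and were not called. Cp, ceruloplasmin, had log2 signals of 12.01 and 11.94 in the controls and of 11.99 and 12.06 after UVB, and these groups overlapped. It differed by −0.02 on the log2 scale in experiment 1 and by 0.12 in experiment 2 (adjusted p = 0.453 from limma). Heph, the membrane-bound hephaestin, had log2 signals of 8.52 and 8.45 in the controls and of 8.36 and 8.42 after UVB. Both UVB arrays were lower, by 0.16 in experiment 1 and 0.03 in experiment 2 (adjusted p = 0.203 from limma).

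Hmox1, the inducible heme oxygenase that frees iron from heme and a widely used oxidative stress gene, was not higher 1 day after UVB. Its log2 signals were 11.97 and 12.09 in control and 11.84 and 11.71 after UVB. All UVB values lay below all control values, by 0.13 in experiment 1 and 0.38 in experiment 2 on the log2 scale. The mean log2 fold change was −0.26 (standard error 0.075 without the block, 0.089 with it). Hmox1 was not called (adjusted p = 0.123 from limma, 0.371 with the block). With the block, the 95% interval of its fold ran from 0.656 to 1.07.

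Ireb2 encodes IRP2, the iron regulatory protein that binds the mRNAs of ferritin, ferroportin and the transferrin receptor. Its log2 signals were 9.44 and 9.40 in control and 9.28 and 9.33 after UVB. The UVB arrays were lower in both experiments, with a log2 fold change of −0.12 (adjusted p = 0.0945 from limma), which was not called.

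**Figure D2:**
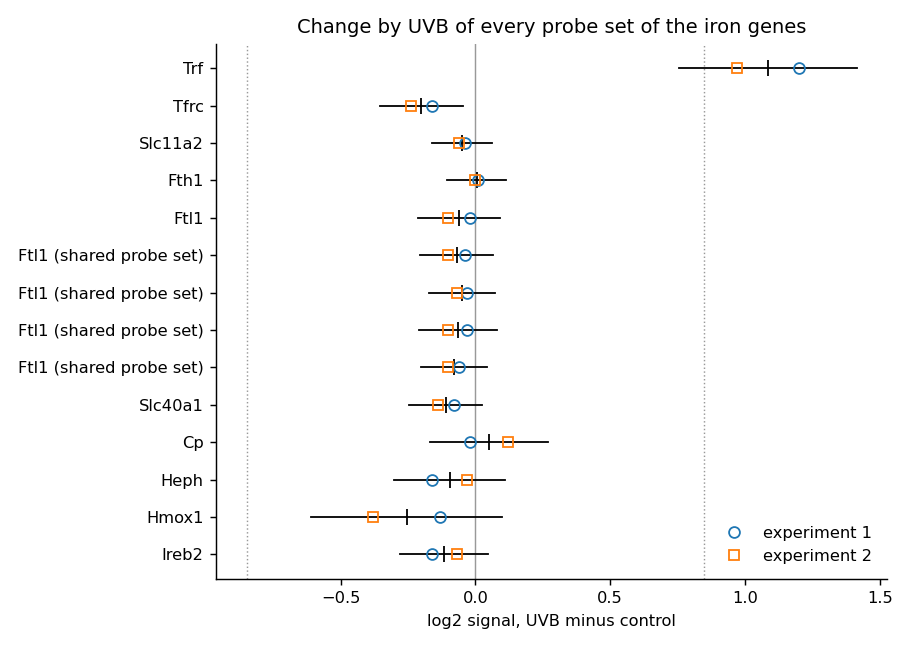
Difference in log2 signal, UVB minus control (horizontal), for the 14 probe sets of the iron genes, with circles for experiment 1, squares for experiment 2, ticks for their mean and lines for the 95% interval of the fit with the experiment as a block. Dotted lines mark 1.8-fold in either direction. The interval of Trf lies above 0 and that of Tfrc below 0. Those of the listed genes other than Trf lie within 1.8-fold, between 0.656-fold and 1.20-fold.

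No other listed gene passed the thresholds together with Trf. When limma was run without the block, at an adjusted p of 0.05, 1 gene (Trf) was higher and 1 (Tfrc) lower, against 6.62% of all probe sets higher and 11.0% lower. Once arrays were centred on their medians, 1 was higher and 3 were lower, and with the 75th percentiles set equal, 1 was higher and 0 lower. The shares of all probe sets called under these scalings are not given here, and 6.62% and 11.0% belong to the values as deposited. With the block, limma called 0 of the 10, and 1 higher and 1 lower gene, again Trf and Tfrc, had an unadjusted p under 0.05, which 5.69% and 7.71% of all probe sets had. In both experiments 1 gene was higher and 7 were lower after UVB, whereas 24.0% of all probe sets were higher and 37.4% lower in both. The median log2 fold change of the 9 genes other than Trf was −0.095, beside −0.02 over all probe sets. For these 9 genes, the 95% intervals with the block lay between 0.656-fold and 1.20-fold. Those intervals rest on 1 residual degree of freedom and on the variance that limma borrows from all probe sets.

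A further 56 genes of iron handling were listed, of which 54 had a probe set of their own. Past 1.8-fold at an unadjusted p below 0.01, 0 of the 54 were found in limma with or without the block. Of all probe sets, 0.111% passed as higher without the block and 0.0622% with it. Past 1.5-fold at the same p without the block, 0 of the 54 were higher, beside 101 of 28944 probe sets. These counts of 0 are therefore near the background. An unadjusted p under 0.05 without the block was found for 19. Of all probe sets, 38.1% had such a p, so that the 19 of 54 do not stand above the background. At an adjusted p of 0.05 in limma, 5 were higher and 1 was lower, beside 6.62% and 11.0% of all probe sets. With the block, limma called 0 of the 54. The split was 5 and 3 once arrays were centred on their medians, and 5 and 0 after quantile normalization. The shares of all probe sets under these scalings are not given here. With the block, 4 higher and 1 lower had an unadjusted p under 0.05, beside 5.69% and 7.71% of all probe sets. The 54 genes had a median log2 fold change of −0.01, and 48 of the 54 lay within 1.2-fold, as did 94.4% of all probe sets.

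Of 5 ferric reductases, which turn ferric into ferrous iron at membranes, limma called 2 higher and 1 lower at an adjusted p of 0.05. Of all probe sets, 6.62% were called higher and 11.0% lower. Steap4, a metalloreductase induced by inflammatory signals, had log2 signals of 6.05 and 5.94 in the controls and of 6.51 and 6.62 after UVB. It rose 1.48-fold (log2 fold change 0.57, adjusted p = 0.0348 from limma), with all of its signals below the array medians. Frrs1, a ferric-chelate reductase, had log2 signals of 7.34 and 7.30 in the controls and of 7.61 and 7.65 after UVB, a rise of 1.24-fold (adjusted p = 0.0250 from limma). Cybrd1, the duodenal cytochrome b reductase, was lower in both experiments, from 11.17 and 11.14 to 10.99 and 11.02. Cybrd1 fell by 0.15 on the log2 scale (adjusted p = 0.0391 from limma).

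In the group for intracellular iron sensing, limma called 1 of 5 genes higher and 0 lower, beside 6.62% and 11.0% of all probe sets. This was Epas1, which encodes HIF-2α, a hypoxia-inducible factor whose translation is held back by iron regulatory protein. It had log2 signals of 8.50 and 8.54 in the controls and of 8.88 and 8.84 after UVB (1.27-fold, adjusted p = 0.0237 from limma).

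Heme handling gave 2 of 8 genes called higher and 0 lower, beside the 6.62% and 11.0% of all probe sets. Flvcr1, a heme exporter, went from 8.80 and 8.77 to 8.92 and 8.95 on the log2 scale, or 1.11-fold (adjusted p = 0.0391 from limma). Slc48a1, which carries heme out of endosomes and lysosomes, went from 11.43 in both controls to 11.53 on both UVB arrays, or 1.07-fold (adjusted p = 0.0238 from limma). The block gave each of the 6 called genes named in these paragraphs an adjusted p of 0.357.

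No gene of the other groups was called at an adjusted p of 0.05 in limma. They are the 16 of uptake, the 4 of storage, the 8 of export and its hormonal control, and the 8 measured of mitochondrial iron and iron-sulfur clusters. In these 4 groups, 5, 2, 2 and 1 genes had an unadjusted p under 0.05 without the block, beside the 38.1% of all probe sets. Pcbp2 and Pcbp1, chaperones that deliver iron to ferritin, had log2 fold changes of −0.005 and 0. Lcn2, lipocalin 2, which binds iron-loaded siderophores, had the second largest log2 fold change of all 64 measured iron genes after Trf, but the experiments differed. Its log2 signals were 8.17 in control and 8.48 after UVB in experiment 1, and 7.54 and 9.11 in experiment 2. The groups did not overlap, and Lcn2 was not called (adjusted p = 0.191 from limma without the block). Its log2 fold change was 0.94 (standard error 0.37 without the block, 0.43 with it).

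**Figure D3:**
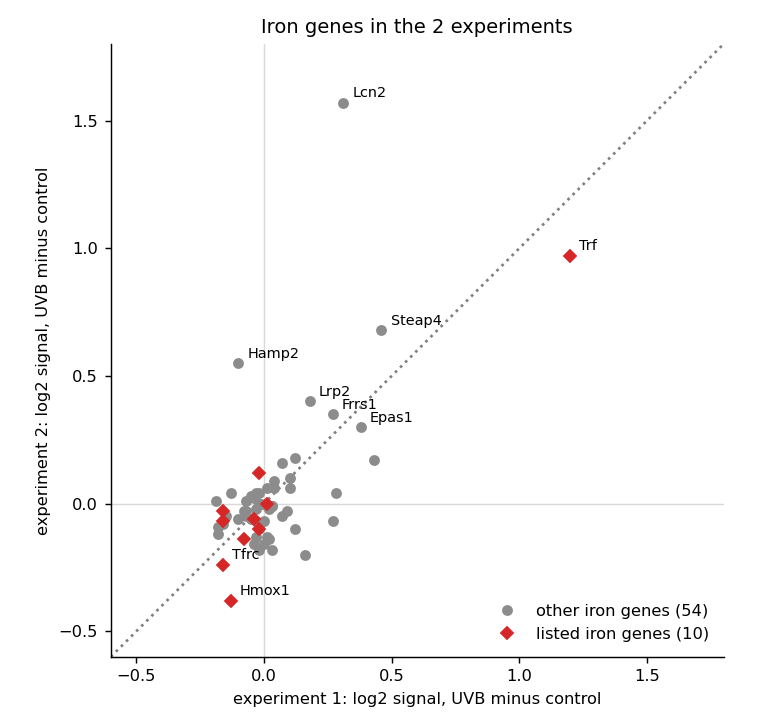
Difference in log2 signal, UVB minus control, in experiment 1 (horizontal) and experiment 2 (vertical) for the 10 listed iron genes (diamonds) and 54 other iron genes (circles), with equal changes on the dotted line. Trf lies at 1.20 and 0.97, Lcn2 at 0.31 and 1.57, and most of the other genes lie close to 0 in both.

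Most genes of the photoreceptor, pigment epithelium and melanin synthesis lists were higher after UVB, as was Trf. In bulk RNA, a change in the number of cells of a type and a change in the RNA of each cell cannot be told apart. Against 24.0% of all probe sets, all 22 measured photoreceptor genes were higher in both experiments. Their mean log2 signal went from 8.40 to 9.02 in experiment 1 and from 8.22 to 9.19 in experiment 2, and 16 of the 22 had signals above the array median on all arrays. Among 13 pigment epithelium and visual cycle genes, 11 were higher in both, with means from 7.84 to 8.75 and from 7.95 to 8.64, and 10 lay above the array median on all arrays. Among 9 genes of melanin synthesis, 8 were higher in both, with means from 7.16 to 7.51 and from 7.08 to 7.59. The median log2 fold change of the photoreceptor list was 0.62 in experiment 1 and 1.07 in experiment 2, against 0.82 and 0.64 for the pigment epithelium list and 1.20 and 0.97 for Trf. Their part in the rise of Trf was not tested.

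Globins, which hold heme iron in red blood cells, were also higher after UVB. The 4 globin probe sets, each shared by several globin genes, had log2 fold changes of 1.13 to 1.32 in experiment 1 and of 0.55 to 0.82 in experiment 2. The 3 red cell genes with their own probe set, Alas2, Slc4a1 and Epb42, had signals below the array median on all arrays and a median log2 fold change of −0.04. Macrophages recycle iron through Hmox1 and Slc40a1. Of 15 macrophage and leukocyte marker genes, 11 were higher in both experiments, beside 24.0% of all probe sets. Hmox1 and Slc40a1 were lower in both, and which cells their signals come from was not tested. Of the 15, limma called 5 higher and 1 lower at an adjusted p of 0.05, beside 6.62% and 11.0% of all probe sets. Only 2 of the 15 lay above the array median on all arrays. Oligodendrocytes make transferrin in the optic nerve and brain. Of 9 measured markers on their list, 4 were higher and 4 lower in both experiments, beside 24.0% and 37.4% of all probe sets. The median log2 fold change of that list was −0.06, and 1 of its 9 genes lay above the array median on all arrays. Genes of the ciliary body and iris ran from −0.20 to 0.48, with a median of 0.11 over 7 genes. Of these, 5 were higher and 2 lower in both experiments. Those of Müller glia and astrocytes ran from −0.03 to 0.465, with a median of 0.22 over 7 genes. The lists of blood vessels (8 genes), cornea and conjunctiva (7), lens epithelium (10) and lens fibers (10) had medians of −0.06, 0.12, −0.0025 and −0.05. For cornea and conjunctiva the experiments differed, with medians of 0.33 in experiment 1 and −0.09 in experiment 2. Krt5 differed most of these 7, at 1.10 and −0.23. The part of these cells in the iron values was not tested.

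**Figure D4:**
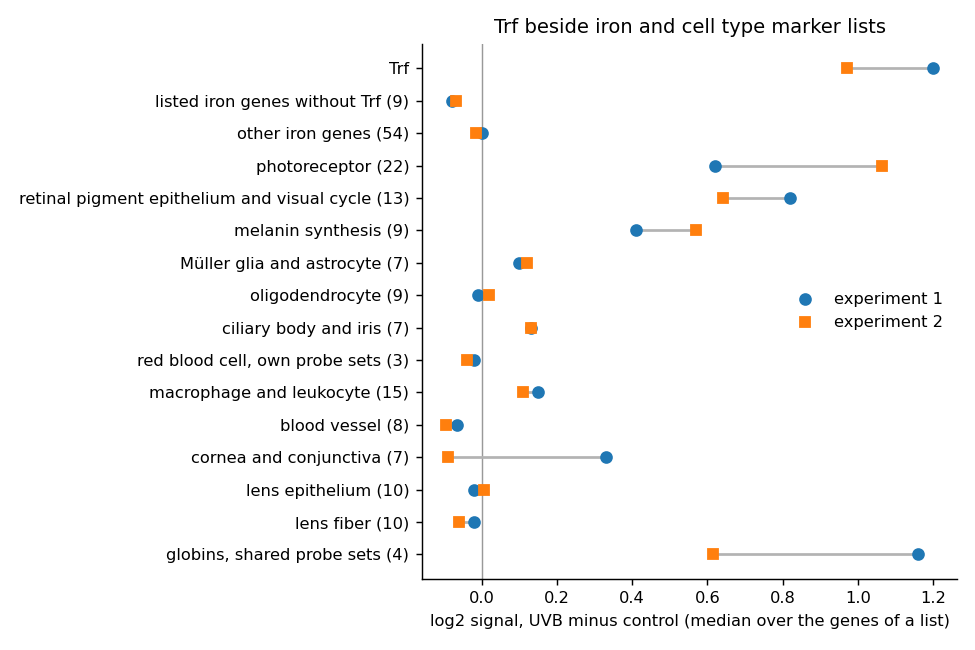
Difference in log2 signal, UVB minus control (horizontal), of Trf and the median of each gene list in experiment 1 (circles) and experiment 2 (squares), with the number of measured genes or probe sets in brackets. Trf lies at 1.20 and 0.97, the photoreceptor, pigment epithelium, melanin and globin rows lie at 0.41 or above in both experiments, and both rows of other iron genes lie close to 0.

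The genes whose pattern over the 4 arrays was most like that of Trf were Cltrn, Opn1mw, Col8a1, Srgn and Otx2. Likeness was the root mean square difference of log2 signals after each gene was centred on its own mean, and it ran from 0.053 to 0.13 for these 5. Cltrn had log2 fold changes of 1.25 and 0.83 in experiments 1 and 2, and Opn1mw of 0.96 and 1.12. For Otx2 they were 0.84 and 0.98. With 4 arrays whose experiment means are equal, such a likeness amounts to a similar change in each experiment.

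Promoters were searched for the core motif bound by Otx2 and Crx, spelled TAATCC, and for the core of the antioxidant response element, spelled TGACNNNGC, on both strands. RefSeq promoters (GRCm38.p6), from 250 bases before to 50 after a start, were on hand for Tfrc, Fth1, Ftl1, Cp and Ireb2, with 8 starts in all. Those of Trf, Slc11a2, Slc40a1, Heph and Hmox1 were not analysed here. The Otx2 and Crx core was in 0 of the 8 and in 7.06% of all 32851 promoters, and the antioxidant core was in 0 of the 8 and in 12.4%. Such a result says only that these letters are not in those windows. Among the other iron genes, 5 of 61 promoters held the Otx2 and Crx core and 11 of 61 the antioxidant core. Promoters of the called genes Epas1 and Slc48a1 were not analysed here, and those of Steap4 and Cybrd1 held neither motif. Frrs1 held the Otx2 and Crx core 196 bases before 1 of its 2 starts (chr3:116859359-116859388, plus strand), read as the reverse complement of the motif. Flvcr1 held the antioxidant core 151 bases before its start (chr1:191026321-191026353, minus strand). Both are shown with the match in capitals, as the matches among called genes.

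Frrs1: ggtcctgaaggtGGATTAggaagtgttgat
Flvcr1: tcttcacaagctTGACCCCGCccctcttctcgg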

How the data were processed

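Lens epithelium RNA of 2 control and 2 UVB-irradiated samples was measured on Affymetrix mouse gene arrays. The deposited values are log2 signals that the authors normalized between arrays with Affymetrix Expression Console and rounded to 2 decimals. The sources used here do not give the software version, the background correction or the summarization of probes. A human array is named in the methods, whereas the platform annotation of the deposited probe sets is of mouse. It gives 21789 probe sets 1 symbol, 1621 several and 5534 none. A gene with several own probe sets was given by the brightest.

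UVB was compared with control in limma 3.58.1 (R 4.3.3), two-sided, over all 28944 probe sets without a filter, with Benjamini-Hochberg adjustment. In the titles only the arrays of experiment 2 carry a number, and the unnumbered ones were taken as experiment 1. Eyes of the same mice were compared, per the methods, so the experiment number was taken to pair them. The fit with that number as a block is given where it changes a call. Arrays with the same number deviated from the group means with a correlation of −0.998, which follows from the equal sums. The fit was tested on simulated data with independent noise in each array, so that test does not cover the equal sums. The number of arrays limits the precision.

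The genes and lists were chosen with earlier results of these data known. All listed genes are named. Of the other iron genes, those named were at an adjusted p of 0.05 or past 1.5-fold with 1 sign in both experiments, and the 3 of highest signal. Alternatives were other priors, no moderation, other scalings, a filter on dim probe sets, 1-symbol probe sets, probe set means, each array left out and 1.5-fold. The count of genes lower in both experiments was rerun under other scalings, as chosen after the data were seen.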

Additional observations from a re-analysis of the deposited data

How the results depend on the processing

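The log2 fold change of Trf was positive in each of the alternatives run. It was 1.085 with the experiment as a replicate block (adjusted p = 0.357) and without moderation (adjusted p = 0.0563), and from 1.025 to 1.145 when 1 array was left out (adjusted p from 0.250 to 0.251), so that these settings ended its call at an adjusted p of 0.05. Trf alone of the 10 passed 1.8-fold at an unadjusted p of 0.01 in each of these settings. The number of the 10 listed genes at an adjusted p of 0.05, 2 as reported, was 1 with the 75th percentiles set equal or quantile normalization, 4 once arrays were centred on their medians, and 0 with the block, without moderation or with any array left out. That of the other iron genes, 6 as reported, was 10 with an intensity trend or only probe sets above the median level, 1 without moderation, and 0 with the block or with any array left out. Apart from the fit with the block, the shares of all probe sets called under these settings are not given here. Fth1 turned from 0.005 to −0.015 once arrays were centred on their medians. From 6 to 8 of the 10 genes were lower in both experiments under the other scalings, which shift the median change of all probe sets by −0.02 to 0.02. The causes of the differences between settings were not tested. The low number of arrays, and for Steap4 signals below the array median, limit what can be seen.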
